A study of Mus musculus with 8 samples.

Results

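A set of 10 genes that mark T cells and natural killer (NK) cells were followed in sorted lung endothelial cells (EC) of tumor-bearing mice, to describe how much lymphocyte RNA a CD45-negative sort still held and whether it differed with treatment. They were chosen by name as known lineage markers, with earlier results of these data known. All 10 were measured, out of 19505 named genes on the array. Cd3d, Cd3e and Cd3g encode the CD3 chains of the T cell receptor complex, Cd4, Cd8a and Cd8b1 its co-receptors, Gzma, Gzmb and Nkg7 proteins of cytotoxic granules, and Klrb1c the NK cell receptor NK1.1. Each was represented by 1 probe set.

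T cells recognize peptides on MHC molecules through the T cell receptor, which signals through the CD3 chains, while CD4 and CD8 bind the MHC molecule and define the helper and the cytotoxic lineages. NK cells lack the T cell receptor and are governed by activating and inhibitory receptors. Both NK cells and cytotoxic T cells kill by releasing granzymes, and both kinds of lymphocyte reside in the lung and pass through its capillaries.

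The sorted cells came from C57BL\6N mice that received Lewis lung carcinoma (LLC) cells under the skin at 8 weeks of age and then either AB-Tie1-39, an antibody that blocks the endothelial receptor TIE1, or control IgG, at 40 mg/kg 2 times per week. On day 14, lung EC were sorted as CD31+ CD45- LYVE1- PDPN- Ter119- DAPI-, and the RNA of each replicate was put on a Clariom S mouse array of its own, with 4 mice for AB-Tie1-39 and 4 for IgG. All mice of both groups carried tumors, so no tumor-free lung was compared. The titles name TIE1 for all 4 antibody-treated replicates, whereas the antibody field of replicates 2, 3 and 4 names other TIE numbers, and one protocol text names liver where the source field names lung. Grouping followed the titles.

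Values are log2 intensities, the brightness of a probe set after the authors' normalization, and every difference is AB-Tie1-39 minus IgG on that scale. The median intensity of the 8 arrays lay between 184 and 189.6. Endothelial markers were bright on every array, with Pecam1, which encodes CD31, at 11.91 ± 0.02 in AB-Tie1-39 and 11.92 ± 0.04 in IgG (SD, n = 4 each), and Tie1 at 11.00 ± 0.11 and 11.06 ± 0.20 (SD, n = 4 each). All 9 measured alveolar type 2 cell genes lay above the background range on all 8 arrays. The median level of all probe sets, 7.54, did so as well, so passing this range alone does not show epithelial RNA. Sftpc, the brightest of the 9, was at 12.11 ± 0.26 in AB-Tie1-39 and 11.73 ± 0.28 in IgG (SD, n = 4 each). Its mean level stood at percentile 99.6 of all probe sets, so lung epithelial RNA was present too. Spike-in controls added at hybridization were low on AB-Tie1-39 3 and 4 and IgG 1 and 2 (10.26 to 10.37) and high on the other arrays (10.64 to 10.93), which put 2 arrays of each treatment in either set. The table held no call of presence, so the background was read from 1447 probe sets of olfactory, vomeronasal and taste receptor genes, most of which are silent outside sensory tissue. Their median was 6.35 to 6.41 and their 95th percentile 7.14 to 7.27 over the 8 arrays. Probe sets bind with different strength, so each gene was set against this range and not against another gene.

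Of the 10 T cell and NK cell genes, Cd4 lay above the 95th percentile of the background on all 8 arrays, 6 lay above it on no array, and Cd3e, Cd8b1 and Gzma passed it on single or a few arrays. In AB-Tie1-39 the means were lower than in IgG for 8 of the 10 genes and higher for 2, and no difference was called. At an adjusted p under 0.05 in limma, 0 of 10 genes passed, where 0% of all 22204 tested probe sets did. At an unadjusted p under 0.05, 0 were higher, against 2.17% of all probe sets, and 2 were lower (Cd3e and Gzma), against 3.15%. No gene separated the 4 arrays of one treatment from the 4 of the other, so the exact Mann-Whitney test called 0 of 10 at an unadjusted p under 0.05. Among all probe sets 1.38% were without overlap and higher, and 1.78% without overlap and lower. The median difference of the 10 genes was -0.07, and that of all probe sets was -0.0045, with a lower mean for 51.8% of them. In a bulk sample, fewer lymphocytes and less RNA per lymphocyte cannot be told apart.

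**Figure D1:**
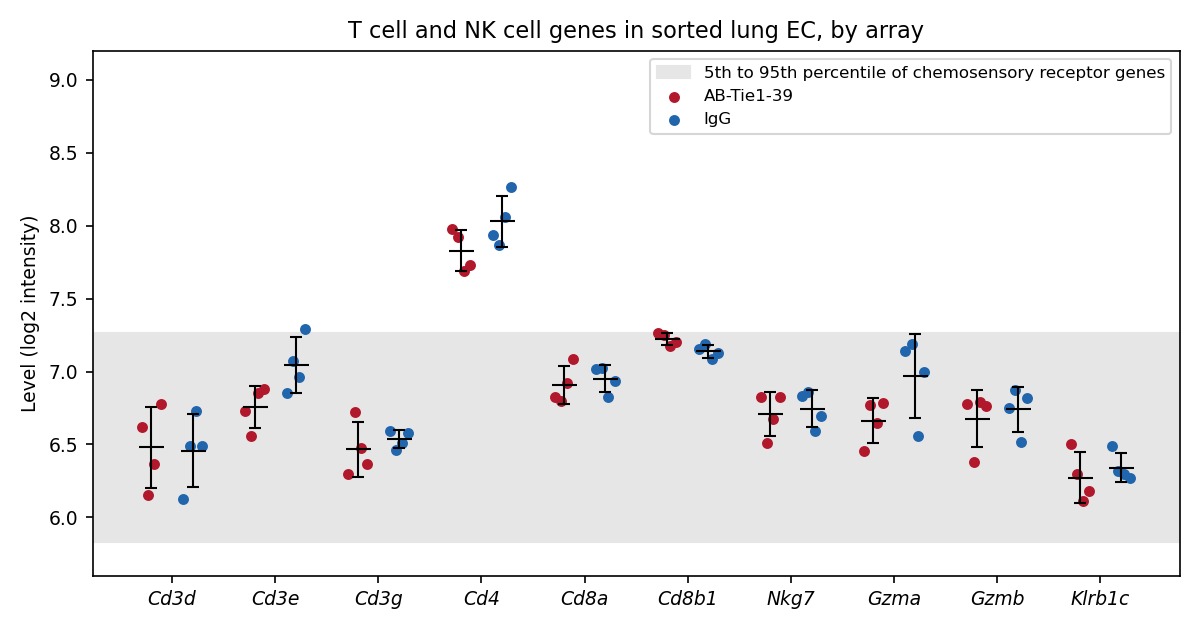
Level of each T cell and NK cell gene (log2 intensity, vertical axis) on the 4 AB-Tie1-39 arrays (red) and the 4 IgG arrays (blue), with the mean and SD of each group in black and the 5th to 95th percentile of the chemosensory receptor genes, taken over the arrays, as the grey band. Cd4 lies above the band on all 8 arrays, and the red and blue points of every gene overlap.

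The CD3 chains gave signals inside the background range on nearly every array. Cd3e encodes the epsilon chain, which pairs with both the gamma and the delta chain. It measured 6.73, 6.56, 6.85 and 6.88 on AB-Tie1-39 arrays 1 to 4, against 6.85, 7.07, 6.96 and 7.29 on IgG arrays 1 to 4. AB-Tie1-39 1, 2 and 3 lay below every IgG array, AB-Tie1-39 4 lay above IgG 1, and IgG 4 was the single array past the background range. The means were 6.75 ± 0.14 in AB-Tie1-39 and 7.04 ± 0.19 in IgG (SD, n = 4 each), a difference of -0.29 (standard error 0.11, 95% interval -0.53 to -0.05), below an unadjusted p of 0.05 but with an adjusted p of 0.911 in limma. It was -0.10 within the arrays with low hybridization controls and -0.48 within those with high ones, with 2 arrays per treatment in each. Without IgG 4 it was -0.21 and without AB-Tie1-39 2 it was -0.23, both no longer past the unadjusted threshold.

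Cd3d, the delta chain, was at 6.62, 6.15, 6.37 and 6.78 on the AB-Tie1-39 arrays and at 6.13, 6.49, 6.73 and 6.49 on the IgG arrays. Both groups spanned nearly the same range, AB-Tie1-39 4 was the highest array and IgG 1 the lowest. The difference of 0.02 (standard error 0.15, 95% interval -0.32 to 0.37, limma adjusted p = 0.998) had opposite signs in the arrays with low (0.27) and high (-0.22) hybridization controls. Cd3g, the gamma chain, lay between 6.30 and 6.73 in AB-Tie1-39 and between 6.46 and 6.59 in IgG. The highest and the lowest array were both AB-Tie1-39 arrays, and the difference was -0.07 (95% interval -0.28 to 0.14). The 3 genes lie next to each other in the RefSeq gene order of mouse chromosome 9, in the order Cd3g, Cd3d and Cd3e. Their array-by-array patterns differed: AB-Tie1-39 2 was the lowest of the AB-Tie1-39 arrays for Cd3d and Cd3e and the highest for Cd3g.

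Cd4 was the gene that stood above the 95th percentile of the background genes on every array. It lay below the brightest of the array's own background controls on AB-Tie1-39 3 (7.86) and AB-Tie1-39 4 (7.84), and just above it on IgG 2. CD4 marks helper and regulatory T cells, and in mice also some dendritic cells. Its levels were 7.98, 7.92, 7.69 and 7.73 on AB-Tie1-39 arrays 1 to 4 and 7.94, 7.87, 8.06 and 8.26 on IgG arrays 1 to 4. AB-Tie1-39 3 and 4 lay below every IgG array, AB-Tie1-39 1 and 2 lay among them, and IgG 4 was the highest. The means of 7.83 ± 0.14 in AB-Tie1-39 and 8.03 ± 0.17 in IgG (SD, n = 4 each) differed by -0.20 (standard error 0.10, 95% interval -0.43 to 0.03), which is 1.15-fold lower, with a limma adjusted p of 0.951. The difference was alike within the arrays with low (-0.19) and high (-0.21) hybridization controls. With these controls as a block it passed an unadjusted p of 0.05, as it did without AB-Tie1-39 1 (-0.25) or IgG 2 (-0.26), and its adjusted p in limma was 0.843 with the block. Without IgG 4 it was -0.12, the smallest value with an array left out.

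The co-receptor of cytotoxic T cells is a dimer of CD8 alpha and CD8 beta, whose genes Cd8a and Cd8b1 are neighbours on chromosome 6. Cd8b1 measured 7.27, 7.25, 7.17 and 7.21 in AB-Tie1-39 and 7.15, 7.19, 7.09 and 7.13 in IgG. AB-Tie1-39 1, 2 and 4 lay above every IgG array, AB-Tie1-39 3 lay below IgG 2, and AB-Tie1-39 1, 2 and 4 and IgG 2 passed the 95th percentile of the background of their own array. The means were 7.22 ± 0.04 in AB-Tie1-39 and 7.14 ± 0.04 in IgG (SD, n = 4 each), and the difference of 0.09 (standard error 0.06, 95% interval -0.06 to 0.23, limma adjusted p = 0.965) was the highest of the 10. Cd8a lay inside the background range on all 8 arrays, between 6.80 and 7.08 in AB-Tie1-39 and between 6.83 and 7.02 in IgG. Its difference was -0.05 (95% interval -0.23 to 0.14), so the means of the 2 genes of the dimer differed in opposite directions, neither past the test.

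**Figure D2:**
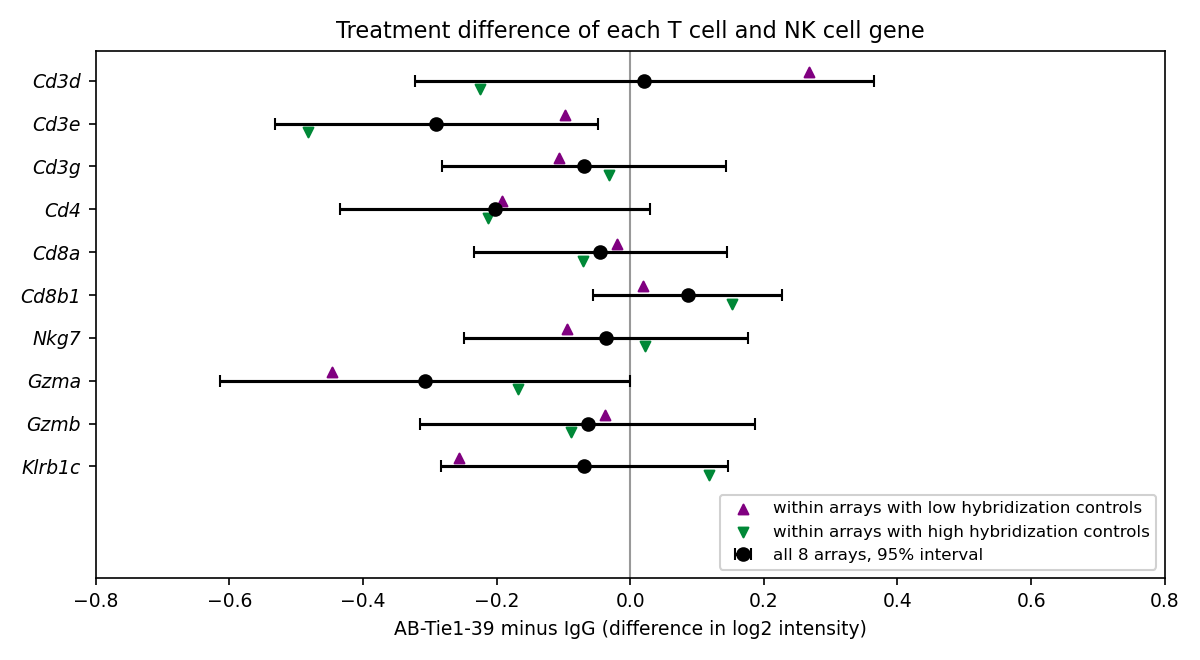
Difference between AB-Tie1-39 and IgG for each gene (log2 intensity, horizontal axis), with its 95% interval in limma over all 8 arrays (black) and the difference within the arrays with low (purple, pointing up) and high (green, pointing down) hybridization controls, 2 arrays of each treatment in either set. The intervals of Cd3e and Gzma end below 0 before adjustment, and the purple and green points of Cd3d, Nkg7 and Klrb1c lie on opposite sides of 0.

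All 4 genes of cytotoxic granules and of the NK receptor had lower means in AB-Tie1-39, with differences between -0.31 and -0.04, where 51.8% of all probe sets had a lower mean. Gzmb, Nkg7 and Klrb1c passed the 95th percentile of the background on 0 arrays, and each changed sign in at least 1 alternative. Gzma encodes granzyme A, a trypsin-like protease of NK and cytotoxic T cell granules. It was at 6.45, 6.77, 6.65 and 6.79 on AB-Tie1-39 arrays 1 to 4, against 7.14, 7.19, 6.56 and 7.00 on IgG arrays 1 to 4. IgG 1, 2 and 4 lay above every AB-Tie1-39 array, whereas IgG 3 lay below 3 of them, and IgG 2 was the single array past the background range. The means were 6.66 ± 0.15 in AB-Tie1-39 and 6.97 ± 0.29 in IgG (SD, n = 4 each), a difference of -0.31 (standard error 0.14, 95% interval -0.61 to -0.00092), just below an unadjusted p of 0.05 and with an adjusted p of 0.932 in limma. The difference was -0.45 within the arrays with low hybridization controls and -0.17 within those with high ones. IgG 3 was the only IgG array within the AB-Tie1-39 range, so leaving it out separates the groups by construction. The difference was then -0.44, with an adjusted p of 0.750 in limma. Without any one of AB-Tie1-39 1, 2 and 3 and IgG 1, 2 and 4 it missed the unadjusted threshold, with the smallest difference, -0.24, without IgG 2.

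Gzmb, which encodes the granzyme that starts apoptosis in target cells by cleaving caspases, measured 6.78, 6.38, 6.79 and 6.76 in AB-Tie1-39 and 6.75, 6.87, 6.52 and 6.82 in IgG. AB-Tie1-39 1, 3 and 4 were nearly equal and AB-Tie1-39 2 lay below all others. The difference was -0.06 (95% interval -0.31 to 0.19) and turned to 0.03 without AB-Tie1-39 2. Nkg7, a granule membrane protein of NK and cytotoxic T cells, lay between 6.51 and 6.83 in AB-Tie1-39 and between 6.59 and 6.86 in IgG, with a difference of -0.04 (95% interval -0.25 to 0.18). Klrb1c was at 6.51, 6.30, 6.11 and 6.18 on the AB-Tie1-39 arrays and at 6.49, 6.32, 6.30 and 6.27 on the IgG arrays, close to the median of the background genes. AB-Tie1-39 1 was the highest array and AB-Tie1-39 3 the lowest, so the IgG values lay within the AB-Tie1-39 range. Its difference of -0.07 (95% interval -0.28 to 0.15) was -0.26 within the arrays with low and 0.12 within those with high hybridization controls. Klrb1c lies beside Klrb1b, a gene of the same receptor family, on chromosome 6, and whether its probes also take up signal of relatives was not tested.

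Averaged per array, the 10 genes gave 6.83, 6.74, 6.77 and 6.86 on AB-Tie1-39 arrays 1 to 4 and 6.89, 6.93, 6.81 and 6.95 on IgG arrays 1 to 4. IgG 3 lay below AB-Tie1-39 1 and 4, and the other IgG arrays lay above all AB-Tie1-39 arrays. The array with the lowest value of a gene was an AB-Tie1-39 array for 8 genes, AB-Tie1-39 2 for 4 of them, and an IgG array for 2. The array with the highest value was an AB-Tie1-39 array for 5 genes and an IgG array for 5. No array was low or high for all 10 genes. The median SD within groups was 0.150 for these genes, 0.142 for the background genes and 0.138 for all probe sets. Of the background genes, 4.63% had an unadjusted p under 0.05 in either direction.

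**Figure D3:**
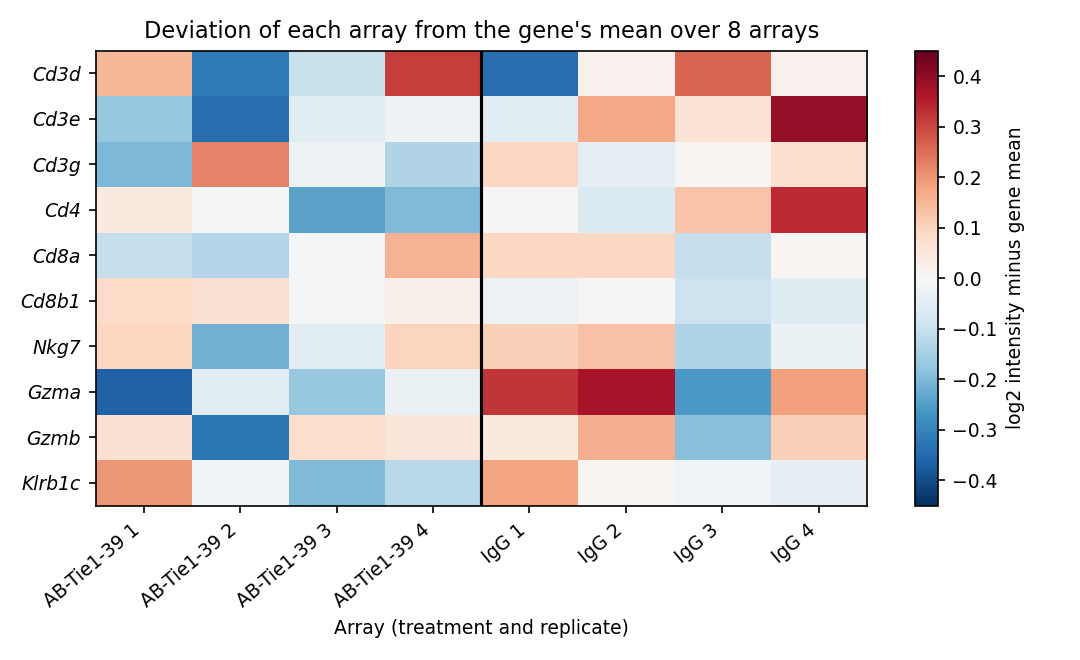
Deviation of each array (columns, AB-Tie1-39 left of the line and IgG right of it) from the mean of each gene over the 8 arrays (rows), in log2 intensity, red above and blue below the mean. The blue cells of AB-Tie1-39 2 and the red cells of IgG 4 stand out in several rows, and no column has a single colour throughout.

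Among other T cell genes, too, no difference was called. Of 28 genes drawn up for receptor signalling, co-stimulation and T cell transcription, 20 were measured, 9 with higher and 11 with lower means in AB-Tie1-39, and 0 passed the test at either threshold (limma, smallest adjusted p 0.951). Their median difference was -0.01. Of these, 6 lay above the background range on all 8 arrays (Cd5, Cd247, Zap70, Lat, Ubash3a and Ccr7) and 10 on none. The median level of all probe sets, 7.54, lay above this range too, so passing it does not by itself show T cell RNA. Cd247, the zeta chain through which the receptor signals and which NK cells also use, was at 7.89 ± 0.11 in AB-Tie1-39 and 7.89 ± 0.16 in IgG (SD, n = 4 each), a difference of 0.01. Cd2, an adhesion receptor of T and NK cells, was at 6.97 ± 0.22 and 6.98 ± 0.19 (SD, n = 4 each). The smallest unadjusted p in this list belonged to Il7r, the receptor chain for interleukin-7, with a difference of -0.27, followed by Cd6 (-0.33), the signalling adaptor Lat (-0.22) and the inhibitory receptor Ctla4 (0.15), with adjusted p from 0.951 to 0.965 in limma.

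Of 30 other genes of NK cells and cytotoxic lymphocytes 27 were measured, 12 with higher and 15 with lower means in AB-Tie1-39. In limma 0 passed the adjusted test, 0 were higher and 3 were lower at an unadjusted p under 0.05, where 2.17% of all probe sets were higher and 3.15% lower, and the median difference was -0.02. Of these, 19 did not pass the 95th percentile of the background on any array, and Ctsw, Xcl1 and Serpinb9b lay above it on all 8 arrays. Prf1 encodes perforin, which forms the pores through which granzymes enter a target cell. It was at 6.90, 7.01, 7.21 and 6.96 in AB-Tie1-39 and at 7.38, 7.41, 7.50 and 6.92 in IgG. IgG 1, 2 and 3 lay above every AB-Tie1-39 array and IgG 4 below all but one of them, so that for Prf1 the overlapping IgG array was IgG 4, and for Gzma it was IgG 3. The difference was -0.28 (standard error 0.13, limma adjusted p = 0.932). Cd226, an activating receptor of NK and T cells that also occurs on platelets and endothelium, was at 7.21 ± 0.15 and 7.67 ± 0.37 (SD, n = 4 each), a difference of -0.46 (limma adjusted p = 0.887). Klrb1f, a relative of Klrb1c, differed by -0.40 (limma adjusted p = 0.903) and passed the background range on 0 arrays. Its difference was -0.07 within the arrays with low and -0.72 within those with high hybridization controls. Ncr1, the activating receptor NKp46 of NK cells, lay between 6.21 and 6.61 in AB-Tie1-39 and between 6.08 and 6.31 in IgG, inside the background range throughout, with a difference of 0.19 (limma adjusted p = 0.954).

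Markers of other cells that a CD31-based gate could hold were read on the same arrays. Ptprc, which encodes CD45, the antigen on which leukocytes were gated out, was at 7.17, 7.88, 7.83 and 7.81 in AB-Tie1-39 and at 7.81, 7.34, 7.83 and 7.92 in IgG. It lay above the background range on 7 of 8 arrays, all but AB-Tie1-39 1, and differed by -0.05 (limma adjusted p = 0.996). Averages over 14 measured pan-leukocyte genes ran from 7.63 to 7.78 in AB-Tie1-39 and from 7.68 to 7.79 in IgG, with 7 genes above the background range on all arrays and 1 gene, Itgal, lower at an unadjusted p under 0.05 (-0.23). All counts at this threshold stand against 2.17% of all probe sets higher and 3.15% lower. Of 9 B cell genes, 0 passed it, and their median difference was -0.06. Of 12 myeloid genes, S100a9 (0.28) and Siglecf (0.18) were higher at this threshold and Itgam (-0.40) and Clec4d (-0.16) lower. Itgam and Clec4d were without overlap between groups, as were 1.78% of all probe sets in that direction. The median difference of the 12 genes was 0.06. Siglecf and Clec4d passed the background range on 0 arrays, S100a9 on 2 and Itgam on 4. Itgal and these myeloid genes are named after their values were seen. Platelet genes (8 measured) averaged 8.42 to 8.62 in AB-Tie1-39 and 8.49 to 9.05 in IgG. At the unadjusted threshold 5 were lower, 1 of them without overlap, and 0 higher. Lymphatic endothelial genes (7 measured) averaged 9.02 to 9.09 and 9.14 to 9.51, with 4 lower, all 4 without overlap. Alveolar type 2 cell genes (9 measured) averaged 8.84 to 9.31 and 8.51 to 8.97, with 4 higher and 0 without overlap. None passed the adjusted test in limma. The part of these cells in the lower means of Cd3e and Gzma was not tested.

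**Figure D4:**
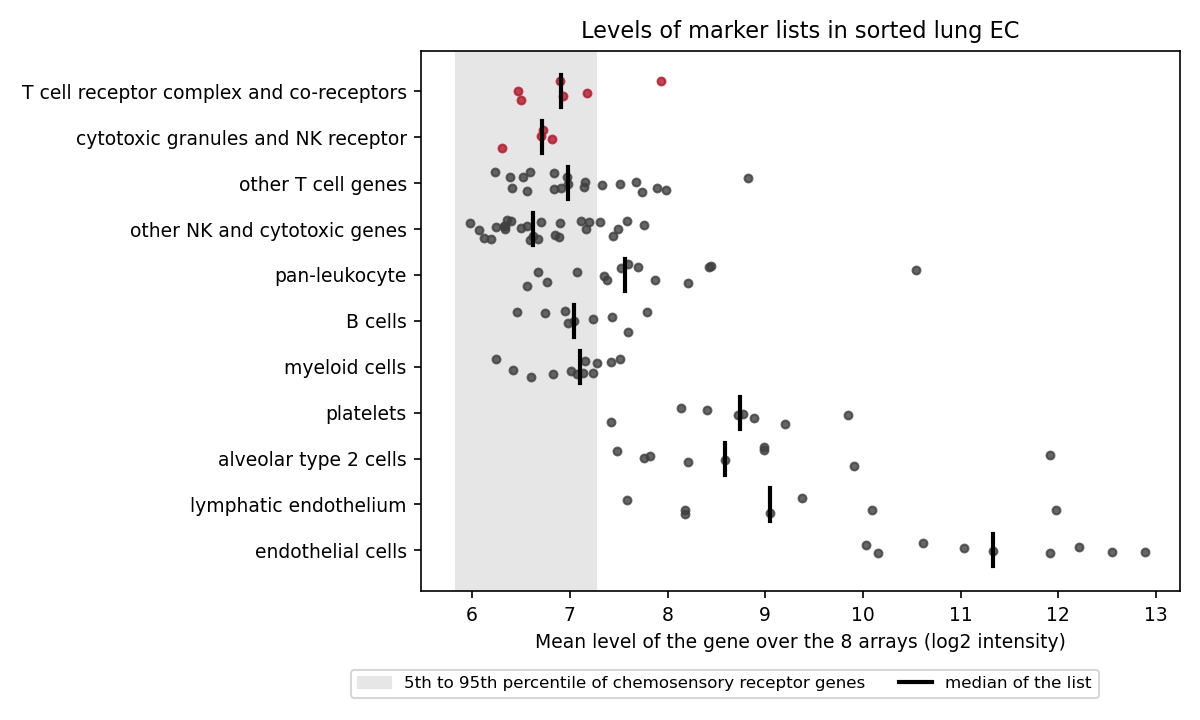
Mean level over the 8 arrays (log2 intensity, horizontal axis) of each measured gene of 11 marker lists, with the 10 T cell and NK cell genes in red, the list median as a black line and the 5th to 95th percentile of the chemosensory receptor genes as the grey band. All red points but that of Cd4 lie inside the band, and all 9 endothelial genes lie above 10.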

How the data were processed

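RNA of 8 sorted samples was measured on 1-colour arrays. The authors deposited linear intensity values that were already normalized, by a method not given in the sources used here. Log2 of these values was fitted per probe set with limma 3.58.1 in R 4.3.3 (eBayes without trend, Benjamini-Hochberg adjustment over 22204 probe sets with values; of 29129, 6923 array controls and 2 probe sets with no value on any array were left out). Gene symbols came from the platform annotation, 19572 probe sets with 1 symbol, 0 with several and 2632 with none. The RefSeq table of assembly GRCm38.p6 served for names and gene order. Each gene was read from its brightest probe set. Named besides the 10 genes are the 4 genes of the other T cell and NK cell lists with the smallest unadjusted p, and Prf1, Ncr1, Cd2, Cd247, Ptprc, Pecam1 and Tie1 for their role. Lyve1 and Pdpn are named as markers of the gate. Genes above the background were named after their values were seen, Sftpc among them. Members and lists were chosen with earlier results of these data known. Listed genes without a matching symbol, Lck among them, were not analysed here.

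Alternatives were quantile normalization, a filter on dim probe sets, a variance trend, array weights, a block for the replicate number, the hybridization controls as a block and within each part, the exact two-sided Mann-Whitney test (smallest p 0.0286) and each array left out. No gene of the 10 had several probe sets, so averaging them was not run. Arrays of the same replicate number showed no shared deviations, with correlations between -0.05 and 0.0066. This cannot tell whether they were handled together. Limma was tested on simulated data. There were 0 columns of other samples. Limma p-values set the difference between groups against the spread between replicates, moderated over all probe sets, and the number of arrays limits precision.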

Additional observations from a re-analysis of the deposited data

Results flagged for a closer look

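One of 22 groups of 4 arrays, the value of each of the 10 genes and their average per treatment, held an array far from the others, and chance alone marks about 1 in 20 such groups. For Gzmb in AB-Tie1-39, array 2 was at 6.38 and the other arrays between 6.76 and 6.79, so the gap took up 0.934 of the range, past the 95% critical value of Dixon's test. The IgG arrays ran from 6.52 to 6.87.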

How the results depend on the processing

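In all 17 alternatives 0 of the 10 genes passed an adjusted p under 0.05, and none of the 151 recomputed gene differences came past that threshold, while 142 kept their direction and 9 turned. Cd3d turned to -0.22, Klrb1c to 0.12 and Nkg7 to 0.023 within the arrays with high hybridization controls. With single arrays left out, Cd3d ran from -0.089 to 0.13, Nkg7 from -0.088 to 0.030 and Gzmb from -0.14 to 0.035. The count at an unadjusted p under 0.05 was 2, with the replicate block also 2, and with the hybridization controls as a block 3 (Cd4 added). It was 1 after quantile normalization, 1 with a variance trend, 1 within the arrays with low hybridization controls (Gzma) and 1 within those with high ones (Cd3e). It was 0 with dim probe sets left out, 0 in the exact Mann-Whitney test, and 0 to 2 with single arrays left out (0 without AB-Tie1-39 2 or IgG 4, 1 without AB-Tie1-39 3 or IgG 1). The share of all probe sets at this threshold was not computed for the alternatives. These counts show only how the calls depend on the processing. The count without overlap was 0, and 0 to 1 with single arrays left out. Cd8b1 was apart without AB-Tie1-39 3 or IgG 2, Cd3e without AB-Tie1-39 4 or IgG 1, and Gzma without IgG 3. In each case the array left out was one that had overlapped, so the separation follows from the choice of array. Full separation also comes more easily with fewer arrays, and the share of all probe sets was not computed for it. The filter on dim probe sets kept Cd4 alone, so the median difference became -0.20. Over all probe sets, 0 to 18 passed an adjusted p with single arrays left out (18 without IgG 4), and 0 in the other alternatives, the replicate block included. Signal over background limits every gene, since a difference of a gene at background would appear too small or not at all. Cd4 alone passed the 95th percentile of the background genes on all 8 arrays, but not the brightest background control of every array.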
